A study of Arabidopsis thaliana with 6 samples.

Results

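Of the 47 loci at which transcripts paired with transposable elements (TEs) were modelled in ddm1 or wild-type flower buds of Arabidopsis thaliana, 41 had a model in the ddm1 library and none in the wild-type library (exact Poisson 95% interval 29.4 to 55.6). Another 3 loci had a model in both libraries and 3 had one in wild type only (0.619 to 8.77 for each). The 41 loci are described here as gained in ddm1. They were chosen by joining deposited models whose exons shared 1 bp or more on the same strand, so that 87.2% of the 47 loci, and 11.9% of the 344 loci of all 6 libraries of the series, are gained by construction. Each locus is named by the first TE identifier the authors paired with it.

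The ddm1 library came from immature inflorescences (stages 1 to 12) of plants mutant for ddm1 in the Columbia ecotype, and the wild-type (wt) library from the same stages of Columbia. The labels give no ddm1 allele and no generation. Growth was at 22 °C under 16 h days, both libraries took 14 PCR cycles from 50 ng of poly(A) RNA and shared sequencing round 1 on a nanopore flow cell, and RNA was extracted with TriZOL LS in ddm1 and TriZOL in wt, so that extraction and genotype cannot be told apart. The same loci were also read in 4 libraries that carry ddm1 together with rdr6, with pol V, or with both of these (replicate A in round 1, and replicate B in round 2 with 13 cycles, at a higher depth per the labels). There was 1 ddm1 and 1 wt library, so the difference has no replicate check, no test of genotype was possible, and intervals cover counting error only.

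DDM1 is a nucleosome remodeler that lets DNA methyltransferases reach the histone H1-bound chromatin of TEs. When it is lost, methylation falls over TEs and many of them become transcribed. TEs are either retrotransposons, which move through an RNA copy, or DNA transposons such as the Mutator, hAT and CACTA superfamilies, which encode a transposase. Long cDNA reads show where such a transcript begins, how it is spliced and where its poly(A) tail was added, which short reads from repeats rarely resolve. The number at the end of each model name was taken as the reads in that model's cluster. The smallest was 10, so a locus without a model may still have been transcribed below that number, and no fold against wt can be given.

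In several groups of related TE copies the ddm1 transcripts shared their start. Comparing the most abundant ddm1 model of each gained locus with the others (at least 80% identity over at least 80% of the shorter), 18 of the 41 loci fell into 5 sequence groups and 23 had no relative among the gained loci. Since the groups were formed by likeness of the models, alike transcribed bases at their starts are partly built in. The bases before the start were not used for grouping. The first group held 4 unspliced loci that were 97.9% to 99.5% identical in pairs. Their windows of 30 bases before and 30 bases from the model start, printed here because they show the shared start, were identical in all 60 bases. Capitals mark the first 10 transcribed bases, read from the reference genome of TAIR10.1.
AT2TE16800 (chr2:3953459-3953518, plus strand): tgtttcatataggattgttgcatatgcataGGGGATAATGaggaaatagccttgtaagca
AT4TE16900 (chr4:3841585-3841644, minus strand): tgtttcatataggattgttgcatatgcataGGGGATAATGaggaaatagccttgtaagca
AT4TE16945 (chr4:3869631-3869690, minus strand): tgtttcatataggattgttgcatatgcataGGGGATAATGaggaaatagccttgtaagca
AT4TE17360 (chr4:3990609-3990668, minus strand): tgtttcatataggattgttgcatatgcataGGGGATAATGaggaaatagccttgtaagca

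The second group held 7 unspliced loci on all 5 chromosomes, 91.1% to 95.1% identical in pairs. Their ddm1 models began at either of 2 places 14 bases apart. The start windows show the same word, CATAGGGGAT, at both.
AT1TE47605 (chr1:14459790-14459849, plus strand): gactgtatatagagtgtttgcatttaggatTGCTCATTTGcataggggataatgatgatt
AT2TE20940 (chr2:5092861-5092920, plus strand): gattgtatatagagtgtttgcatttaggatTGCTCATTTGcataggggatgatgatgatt
AT3TE52305 (chr3:12708093-12708152, minus strand): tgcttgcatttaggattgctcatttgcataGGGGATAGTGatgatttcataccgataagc
AT3TE62685 (chr3:15458599-15458658, minus strand): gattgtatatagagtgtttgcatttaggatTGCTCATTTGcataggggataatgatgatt
AT4TE15420 (chr4:3386227-3386286, plus strand): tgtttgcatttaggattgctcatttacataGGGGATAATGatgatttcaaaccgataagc
AT4TE15665 (chr4:3466318-3466377, plus strand): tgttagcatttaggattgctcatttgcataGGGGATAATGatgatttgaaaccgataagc
AT5TE44730 (chr5:12628415-12628474, minus strand): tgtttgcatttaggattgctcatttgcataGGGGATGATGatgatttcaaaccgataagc

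The word CATAGGGGAT, the longest run common to these windows and chosen after they were seen, stood in the start window of all 11 loci of these groups on the transcript's strand and of no other gained locus. Its run of G was the first transcribed base at 8 loci and lay 14 bases further on at AT1TE47605, AT2TE20940 and AT3TE62685. On either strand it occurred in the same window of 1 of 27444 protein-coding genes (0.00364%). This share is no test of the word, which was taken from the windows of related copies. The place was not fixed for a locus. AT4TE15665 began 14 bp further upstream in all 4 other mutant libraries than in ddm1, and AT3TE52305 did so in ddm1 rdr6 and in replicates A and B. The AT2TE20940 model of replicate A began 14 bp downstream of the ddm1 start. So did models in ddm1 pol V (30 reads) and replicate B (37 reads), beside models of 10 and 65 reads at the ddm1 start. A match is a description of the letters and does not show a binding site.

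The third group held 3 spliced loci, 95.2% to 98.99% identical. Their start windows were identical in all 60 bases. The loci lie on chromosomes 3 and 4.
AT3TE67445 (chr3:16641313-16641372, plus strand): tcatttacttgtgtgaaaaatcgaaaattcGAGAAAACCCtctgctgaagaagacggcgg
AT4TE10210 (chr4:2157344-2157403, plus strand): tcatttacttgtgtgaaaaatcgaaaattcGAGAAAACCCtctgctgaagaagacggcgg
AT4TE25065 (chr4:5956045-5956104, minus strand): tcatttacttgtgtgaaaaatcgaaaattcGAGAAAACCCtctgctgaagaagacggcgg

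Another group was the pair AT1TE27295 and AT4TE67560, which matched a Mutator-like transposase. The pair was 99.5% identical over 659 nt, with 1 differing base in the 60.
AT1TE27295 (chr1:8457273-8457332, plus strand): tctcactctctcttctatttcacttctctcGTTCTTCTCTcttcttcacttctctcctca
AT4TE67560 (chr4:14284564-14284623, minus strand): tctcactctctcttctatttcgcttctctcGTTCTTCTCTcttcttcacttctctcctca
The last group was the pair AT1TE44630 and AT3TE51460, whose 89.3% identity covered the last part of the longer transcript (1706 nt) and nearly all of the shorter (227 nt).

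Near-identical copies limit how surely a read can be placed. The genome was searched with the span of the most abundant ddm1 model of each of the 41 gained loci, introns included. At AT4TE16900 this was the 517-nt model. With at least 80% identity over at least 80% of that span, 26 loci had another copy and 15 had none. A copy of 95% identity or more existed for 14 loci, which held 518 of the 1106 ddm1 reads at gained loci, and one of 99% or more for 3 loci. AT4TE16900 had 37 other copies, of which 3 carried a ddm1 model and 5 a model in another mutant library. AT1TE47605 had 55 other copies, of which 6 carried a ddm1 model and 12 a model in another mutant library. None of the copies of any gained locus carried a wt model. How the authors placed reads that align to several copies is not given in the sources used here, so reads of single copies within these groups are uncertain.

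Reads were concentrated at a few loci. Summed over its models, a gained locus had a median of 20 cluster reads in ddm1 (order-statistic 95% interval 15 to 26), quartiles of 12 and 29, and a range of 10 to 186. The 5 highest loci held 398 of the 1106 reads (36.0%, exact Clopper-Pearson 95% interval 33.2 to 38.9), and 20 of the 41 loci had under 20 reads. The gained loci made up 1106 of the 1212 TE reads of the ddm1 library (91.3%). At the 3 loci with a model in both libraries the summed reads were 106 in ddm1 and 103 in wt.

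**Figure D1:**
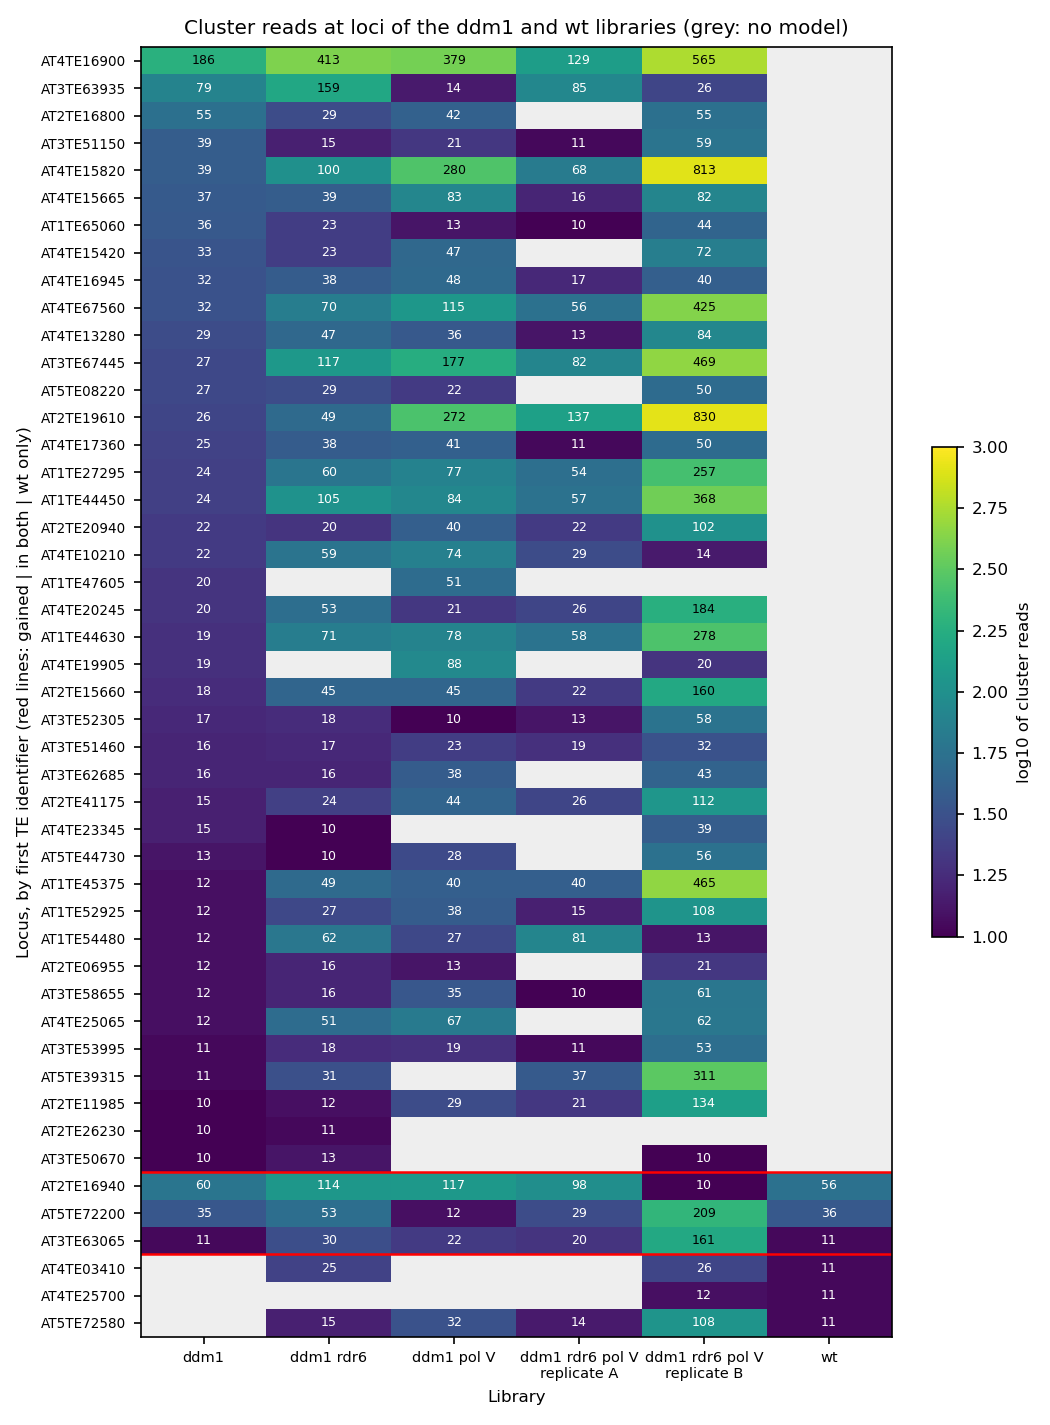
Cluster reads (number and colour, on a log10 scale) at the loci of the ddm1 and wt libraries, 1 row per locus and 1 column per library, with grey where a library had no model. The 41 rows above the first red line have 10 to 186 reads in ddm1 and no model in wt, the next 3 have similar reads in ddm1 and wt, and the last 3 have a model in wt and none in ddm1.

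The locus with most ddm1 reads belonged to the 4-locus unspliced group, which held 298 of the 1106 reads. AT4TE16900 (Chr4 3840963 to 3841614, minus strand, outside annotated genes) had 186 reads in the ddm1 library, 413 in ddm1 rdr6, 379 in ddm1 pol V, 129 in replicate A of ddm1 rdr6 pol V, 565 in replicate B and no model in wt. It was highest of all gained loci in ddm1, and each mutant library had a model there. AT2TE16800 (Chr2 3953489 to 3954131) had 55 reads in the ddm1 library, 29 in ddm1 rdr6, 42 in ddm1 pol V, no model in replicate A, 55 in replicate B and no model in wt. AT4TE16945 had 32 reads in ddm1, 17 to 48 in the other mutants and no model in wt. AT4TE17360 had 25 reads in ddm1, 11 to 50 in the other mutants and no model in wt. All 4 lie in gene-poor bins (500 kb with under 40% of bases in protein-coding genes), and their longest open reading frame was 80 codons at each.

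AT4TE16900 ended at 2 places. One model stopped after 517 nt with 136 reads and the other after 652 nt with 50 reads in ddm1, from the same first base. The shorter form made up 73.1% of these reads in ddm1 (66.1 to 79.3), 80.7% in ddm1 rdr6, 81.4% in ddm1 pol V, 84.5% in replicate A (77.1 to 90.3) and 78.9% in replicate B (Clopper-Pearson). The shorter form had more reads in every mutant library, and the intervals of ddm1 and the others overlapped.

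The 7-locus group had 158 reads in the ddm1 library, 126 in ddm1 rdr6, 297 in ddm1 pol V, 51 in replicate A, 413 in replicate B and none in wt. Its ddm1 transcripts were 571 to 592 nt long at 6 loci, while AT4TE15420 (Chr4 3386257 to 3388257) had models of 2001 nt with 18 reads and 575 nt with 15 reads from the same start. AT4TE15420 had 33 reads in all in ddm1, 23 in ddm1 rdr6, 47 in ddm1 pol V, no model in replicate A, 72 in replicate B and none in wt, and a long form of 2004 to 2012 nt was in each other library with a model. Unspliced forms of 2055 to 2095 nt were also modelled in ddm1 pol V and replicate B at AT2TE20940 and AT5TE44730, beside forms of 572 to 586 nt. AT4TE15665 (Chr4 3466348 to 3466923) had the most ddm1 reads of the group, 37. It had 39 in ddm1 rdr6, 83 in ddm1 pol V, 16 in replicate A and 82 in replicate B. AT2TE20940 had more in replicates A and B, with 22 and 102. Lowest was AT5TE44730, with 13 in ddm1. AT1TE47605 (Chr1 14459820 to 14460402) had 20 reads in ddm1 and 51 in ddm1 pol V, and no model in the other mutants. All 7 loci were in gene-poor bins and outside annotated genes, and the longest open reading frame of their most abundant model had 25 to 73 codons.

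SADHU3-1 was the second strongest gained locus. Sadhu elements are short retroposons that encode no protein, and the reference annotation states that some natural accessions carry a methylated, silenced SADHU3-1 allele. AT3TE63935 (Chr3 15813140 to 15814053, minus strand, pseudogene AT3G44042) had 79 reads in the ddm1 library, 159 in ddm1 rdr6, 14 in ddm1 pol V, 85 in replicate A, 26 in replicate B and no model in wt. The ddm1 model was 1 exon of 914 nt. The ddm1 pol V model began 64 bp from the ddm1 start and had the same 3′ end. In replicate B the nearest start lay 66 bp away, in a model of 16 reads that reached 15813075. The nearest 3′ end there, 2 bp away, belonged to a different model of 10 reads. SADHU1-1 (AT2TE16940), another Sadhu element, had 60 reads in ddm1 and 56 in wt and is not among the gained loci.

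Spliced transcripts were found at 17 of the 41 gained loci (41.5%, Clopper-Pearson 95% interval 26.3 to 57.9), with 2 exons at 7 loci, 3 at 7, 4 at 1 and 5 at 2. Spliced models held 360 of the 1106 reads (32.5%). Their median spliced length was 695 nt (304 to 2560 nt, 18 models), and that of the 27 single-exon models was 576 nt (131 to 2733 nt). Median reads per model were 18.5 for spliced and 18 for single-exon models. At the 297 loci with models in the other mutant libraries only, 57.2% were spliced (51.4 to 62.9). The 2 shares are unlike measures, since 41.5% rests on the ddm1 library alone and 57.2% on pooled models of the other mutant libraries. In replicate B a spliced model was found at 5 of the 24 gained loci that were unspliced in ddm1. The 2 intervals overlap, and library totals are unknown.

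**Figure D2:**
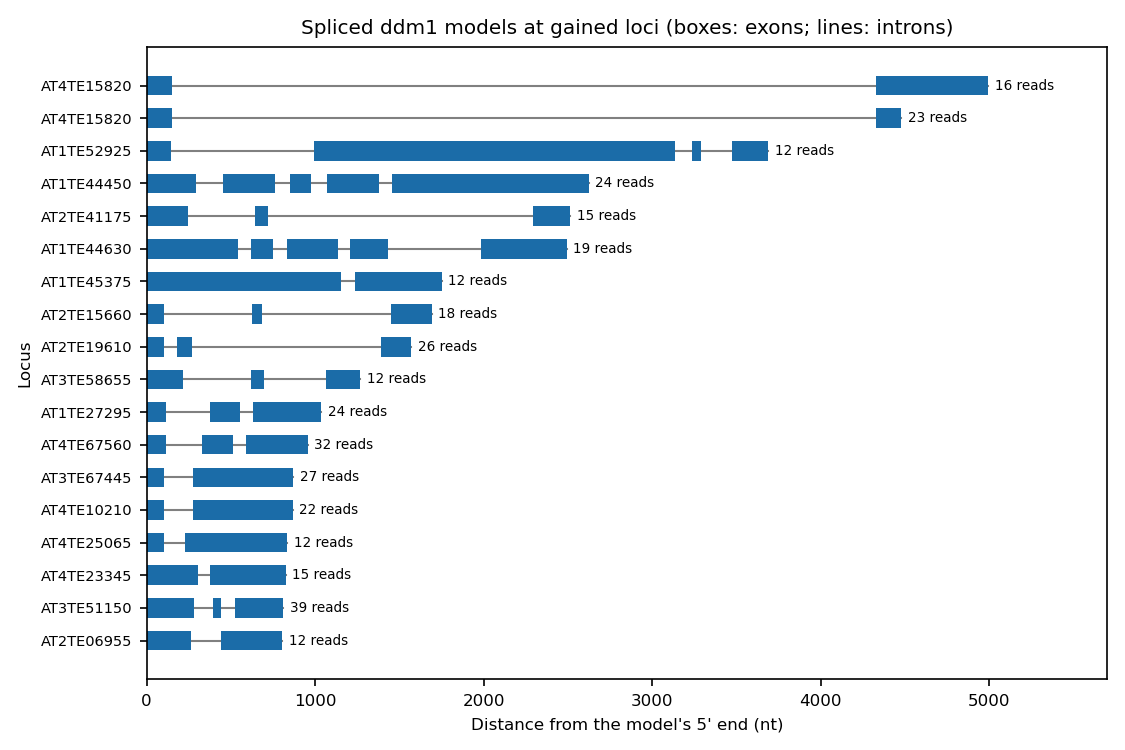
Exons (boxes) and introns (lines) of the 18 spliced ddm1 models at 17 gained loci, by distance in nt from the model's 5′ end, with the cluster reads at the right. Both models of AT4TE15820 share an intron of 4175 nt, and AT1TE44450 and AT1TE44630 have 5 exons each.

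The 32 distinct introns of these models were all of the GT-AG type, the usual class in plants. The median intron was 168 nt long (range 70 to 4175 nt, quartiles 83.25 and 398.5 nt), 20 were under 200 nt and 3 exceeded 1000 nt. Exactly the same intron was found in ddm1 rdr6 for 32 of 32, in ddm1 pol V for 30, in replicate A for 28 and in replicate B for 32, and 27 were in all 4 libraries. Their median GC content was 30.8%, against 38.1% for the transcripts of the gained loci and 36.0% for the chromosomes.

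The spliced 3-locus group kept its junctions across copies. Each line shows 10 exonic and 12 intronic bases at the donor, or 12 intronic and 10 exonic bases at the acceptor, with GT or AG in capitals.
AT3TE67445 donor: tcttcacaagGTtagatctttt
AT3TE67445 acceptor: tgtatttgacAGacatgcctat
AT4TE10210 donor: tcttcacaagGTtagatctttt
AT4TE10210 acceptor: tgtatttgacAGacatgcctat
AT4TE25065 donor: tcttcacaagGTtaggtctttt
AT4TE25065 acceptor: tgtatttgacAGacatgcctat
The first exon was 102 nt at all 3 loci. The intron was 172 nt at AT3TE67445 and AT4TE10210 and 126 nt at AT4TE25065. AT3TE67445 (Chr3 16641343 to 16642212, pseudogene AT3G45360) had 27 reads in the ddm1 library, 117 in ddm1 rdr6, 177 in ddm1 pol V, 82 in replicate A, 469 in replicate B and no model in wt. AT4TE10210 (Chr4 2157374 to 2158240, pseudogene AT4G04394) had 22 reads in ddm1, 59, 74 and 29 in the other round 1 mutants in the same order, 14 in replicate B and no model in wt. AT4TE25065 (pseudogene AT4G09400) had 12 reads in ddm1, 51 to 67 in 3 other mutant libraries and no model in replicate A or wt. No translated match to a TE protein was found for this group, and its longest open reading frames had 126 to 151 codons.

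Mutator-like transcripts came from AT1TE27295 and AT4TE67560. Mutator elements are DNA transposons whose transposase is of the MURA type. The best match of both was AT1G36085, a mutator-like transposase (97.6% identity over 85 amino acids). AT4TE67560 (Chr4 14283638 to 14284593, pseudogene AT4G28970) had 32 reads in the ddm1 library, 70 in ddm1 rdr6, 115 in ddm1 pol V, 56 in replicate A, 425 in replicate B and no model in wt. AT1TE27295 (Chr1 8457303 to 8458336, overlapping exons of the protein-coding gene AT1G23915) had 24 reads in ddm1, 60, 77, 54 and 257 in the other mutants in the same order, and no model in wt. Their first and second exons, 113 and 180 nt, were identical between the loci, and their second introns were both 79 nt. The first intron was 260 nt at AT1TE27295 and 218 nt at AT4TE67560. Both lie outside gene-poor bins.

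The hAT-like transcript at AT1TE52925 (Chr1 16070350 to 16074038, pseudogene AT1G42705) had the longest open reading frame of the gained loci, 724 codons in a 4-exon transcript of 2560 nt. Its best match was DAYSLEEPER (AT3G42170), a host protein derived from a hAT transposase, with 25.5% identity over 705 aligned positions. It had 12 reads in the ddm1 library, 27 in ddm1 rdr6, 38 in ddm1 pol V, 15 in replicate A, 108 in replicate B and no model in wt. The only other protein match was at AT5TE08220 (Chr5 2257338 to 2257622, pseudogene AT5G07215), whose 285-nt transcript matched AT2G02520, annotated as related to reverse transcriptases, with 70.5% identity over 44 amino acids. That locus had 27 reads in ddm1, 22 to 50 in 3 other mutant libraries, and no model in replicate A or wt. Across all gained loci, 4 matched 1 of the 112 searched proteins named for a TE type in the reference, and 13 had an open reading frame of 100 codons or more (median 69).

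AT1TE44450 and AT1TE44630 gave the transcripts with most exons. They lie on chromosome 1, at 13573918 to 13576541 (pseudogene AT1G36190) and 13625801 to 13628292 (pseudogene AT1G36260). AT1TE44450 had 24 reads in the ddm1 library, 105 in ddm1 rdr6, 84 in ddm1 pol V, 57 in replicate A, 368 in replicate B and no model in wt. AT1TE44630 had 19 reads in ddm1, 71, 78, 58 and 278 in the other mutants in the same order, and no model in wt. Both transcripts held consecutive exons of 127 and 306 nt. These exons were 79.5% and 80.1% identical between the loci, counted position by position without gaps. The 2 loci did not fall into the same sequence group, whose rule also asked for 80% of the shorter transcript.

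QQS was 1 of the 2 gained loci on exons of a protein-coding gene. QQS (AT3G30720) is a gene found only in A. thaliana that affects the balance of starch and protein. AT3TE51150 (Chr3 12349040 to 12349851) had 39 reads in the ddm1 library, 15 in ddm1 rdr6, 21 in ddm1 pol V, 11 in replicate A, 59 in replicate B and no model in wt. The ddm1 model had 3 exons of 278, 47 and 287 nt (612 nt in all), while every model of the other 4 mutant libraries had 4 exons and 519 to 544 nt. The difference was an intron of 78 nt (12349194 to 12349271) inside the first ddm1 exon, of the GT-AG type. The other introns, of 114 and 86 nt, were the same in ddm1 and the other libraries, except that the last was 89 nt in replicate A. The reference annotation lists QQS transcripts with and without the 78-nt intron.

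Some ddm1 models lay within longer transcripts seen in the other libraries. AT1TE65060 (Chr1 19679717 to 19679899, pseudogene AT1G52850) had 36 reads in ddm1 in 1 exon of 183 nt. Its 3′ end lay within 11 bp of that of 6-exon transcripts of 1749 to 1760 nt in ddm1 rdr6 (23 reads), ddm1 pol V (13) and replicate B (44), whose start lay 2926 bp upstream. Replicate A had a 2-exon model of 553 nt with 10 reads that began 963 bp upstream, and wt had no model. AT3TE53995 (Chr3 13208735 to 13209019) was a 285-nt exon with 11 reads in ddm1, 18 in ddm1 rdr6 and 19 in ddm1 pol V, and a 2-exon, 858-nt transcript with 11 reads in replicate A and 53 in replicate B, with the same last base. A spliced model was found in replicate B at 5 of the 24 loci that were unspliced in ddm1. Whether the short ddm1 models are complete transcripts was not tested.

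Apart from such cases, transcript ends were closely shared between libraries. The most abundant ddm1 model began at exactly the same base as a model in each other library at the median locus (median distance 0 bp in each of the 4 libraries), and within 20 bp at 37 of 39 shared loci in ddm1 rdr6, 34 of 37 in ddm1 pol V, 27 of 29 in replicate A and 32 of 39 in replicate B. The nearest model 3′ end lay a median of 1 bp away in ddm1 rdr6, 3 bp in ddm1 pol V, 4 bp in replicate A and 3 bp in replicate B. Nearest starts and 3′ ends were taken separately over all models of a library. At loci with several models they can belong to different models. A complete chain of introns was found again for 16 of 17 spliced loci in ddm1 rdr6, 13 of 16 in ddm1 pol V, 12 of 14 in replicate A and 16 of 17 in replicate B.

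**Figure D3:**
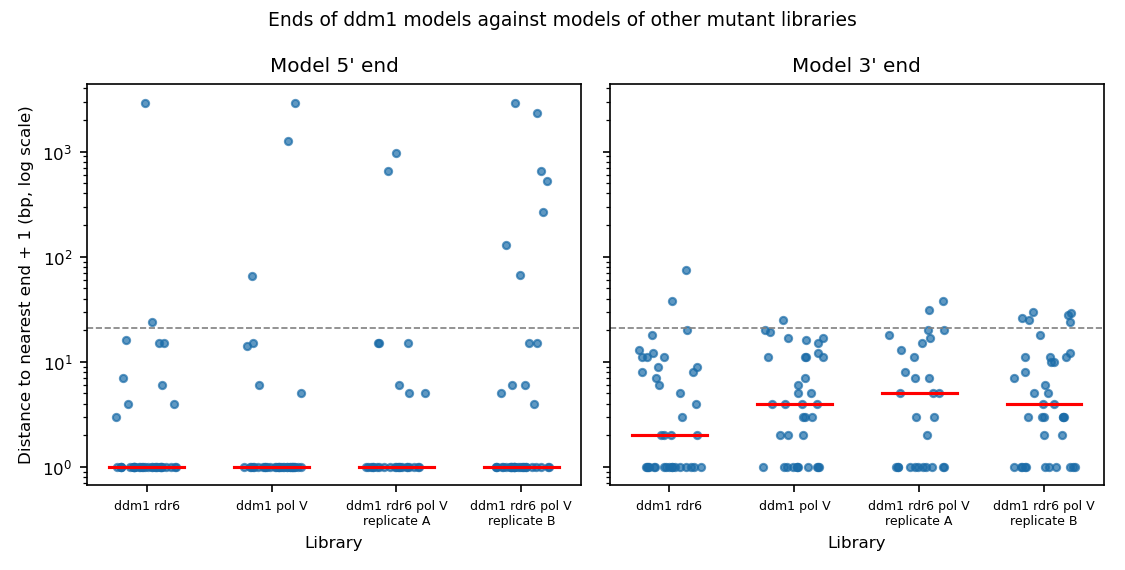
Distance in bp (plus 1, log scale) from the 5′ end (left) and 3′ end (right) of the most abundant ddm1 model at each gained locus to the nearest model end in each other mutant library, 1 point per shared locus, with the median in red and 20 bp as the dashed line. Most points lie under 20 bp, and the largest gaps are at 5′ ends, up to 2926 bp at AT1TE65060.

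A TATA motif stood before 7 of the gained starts. TATA boxes are promoter elements that lie a short, nearly fixed distance upstream of the start and position RNA polymerase II. TATAAA on the transcript's strand lay in the 100 bp before the model start at 7 of 41 loci (17.1%, Clopper-Pearson 95% interval 7.15 to 32.1), against 17.9% of 27443 protein-coding genes. Counting either strand it was 19.5% against 25.9%. All 7 motifs began 32 to 40 bp before the start (median 34). Of the 4919 matches before protein-coding genes, 36.9% began 25 to 45 bp before theirs, a range chosen after the loci were seen. Gene starts were those of the annotated mRNA with the longest span, and locus starts those of the most abundant ddm1 model. The shares therefore rest on unlike definitions of a start. Windows of 50 bases before and 10 bases from each start are shown with TATAAA in capitals.
AT1TE45375 (chr1:13841649-13841708, minus strand): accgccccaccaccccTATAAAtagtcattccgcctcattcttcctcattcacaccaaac
AT2TE11985 (chr2:2709371-2709430, minus strand): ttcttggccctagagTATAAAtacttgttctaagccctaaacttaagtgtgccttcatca
AT2TE19610 (chr2:4727514-4727573, plus strand): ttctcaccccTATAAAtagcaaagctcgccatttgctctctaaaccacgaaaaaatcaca
AT4TE13280 (chr4:2828536-2828595, plus strand): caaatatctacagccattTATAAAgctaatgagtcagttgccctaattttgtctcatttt
AT4TE15820 (chr4:3506689-3506748, minus strand): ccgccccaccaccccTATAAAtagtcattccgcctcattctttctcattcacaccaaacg
AT4TE20245 (chr4:4864141-4864200, plus strand): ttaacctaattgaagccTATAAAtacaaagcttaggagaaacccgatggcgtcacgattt
AT5TE39315 (chr5:10817073-10817132, plus strand): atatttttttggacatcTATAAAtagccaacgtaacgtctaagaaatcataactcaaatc
The motif continued as TATAAATA at 6 of the 7 loci and followed CCCC at 3. The windows of AT1TE45375 and AT4TE15820, on chromosomes 1 and 4, shared an unbroken run of 42 bases, although their transcripts were not alike enough to form a sequence group. No locus of the 11 with CATAGGGGAT had TATAAA in this window.

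Transcripts behind these 7 motifs ranged widely in reads. AT4TE15820 (Chr4 3501705 to 3506698, pseudogene AT4G06566) had 39 reads in the ddm1 library, 100 in ddm1 rdr6, 280 in ddm1 pol V, 68 in replicate A, 813 in replicate B and no model in wt. It ended at 2 places after the same 4175-nt intron, giving 304 nt (23 reads) and 819 nt (16 reads). The shorter form made up 59.0% of these reads in ddm1 (42.1 to 74.4), 61.0% in ddm1 rdr6, 56.5% in ddm1 pol V, 18.2% in replicate A (9.08 to 30.9) and 57.4% in replicate B, counting models whose 3′ end lay within 20 bp. Replicate A was lower than the other 4 libraries, and its interval did not overlap that of ddm1. In replicate A the shorter form was a single model of 10 reads, the smallest number deposited, against 45 for the longer. Any cluster under 10 reads would be missing, so this share is uncertain. The 20 bp rule also left out a 342-nt form with 20 reads in ddm1 pol V. AT2TE19610 (Chr2 4727564 to 4729132) had 26 reads in the ddm1 library, 49 in ddm1 rdr6, 272 in ddm1 pol V, 137 in replicate A, 830 in replicate B and no model in wt. Its ddm1 transcript had 3 exons and 370 nt, with the protein-coding gene AT2G11778 inside its intron of 1124 nt, and replicate B also had a 7-exon transcript of 2145 nt with 14 reads. AT1TE45375 (pseudogene AT1G36630) had 12 reads in ddm1, 40 to 49 in the other round 1 mutants, 465 in replicate B and no model in wt. AT5TE39315 (pseudogene AT5G28785) had 11 reads in the ddm1 library, 31 in ddm1 rdr6, none in ddm1 pol V, 37 in replicate A, 311 in replicate B and no model in wt. AT4TE13280 had 29, AT4TE20245 20 and AT2TE11985 10 reads in ddm1, with a model in every other mutant library and none in wt. At AT4TE13280 the motif stood before the 566-nt model, which held 15 of the 29 reads. The other 14 reads were in a 160-nt model that began further downstream, at 2829058. A model of 17 reads in ddm1 pol V began at the same base.

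The canonical poly(A) signal AATAAA was found in the last 50 bases of 5 of the 41 transcripts (12.2%, 4.08 to 26.2), against 9.70% of 27444 protein-coding genes. It began 22 to 36 bases before the end. The ends of 2 of these are shown, as their signal differs in its surroundings.
AT2TE19610 (chr2:4729083-4729132, plus strand): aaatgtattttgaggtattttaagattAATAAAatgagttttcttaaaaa
AT4TE16945 (chr4:3869030-3869079, minus strand): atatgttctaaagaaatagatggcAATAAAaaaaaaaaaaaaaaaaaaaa
At AT4TE16945 the signal ran into a stretch of A in the genome, and 16 of the 20 bases after the model end were A. Such stretches can prime oligo-dT cDNA synthesis. They were 12 or more of 20 at 3 gained loci (AT4TE16945, AT4TE17360 and AT3TE58655, 7.32%), against 4.98% of protein-coding genes, and the median was 6 of 20. Stretches before the model end were not counted, as at AT2TE20940, whose transcript ended in a run of A. The part of such stretches in the models was not tested.

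The 45 ddm1 models at gained loci had a median spliced length of 612 nt (order-statistic 95% interval 571 to 695) and quartiles of 496 and 720 nt, with 15 models between 560 and 660 nt. Of these 15, 11 came from the unspliced groups of 4 and 7 related loci. The shortest was AT2TE26230 (131 nt, 10 reads) and the longest AT3TE50670 (2733 nt, 1 exon, 10 reads, Chr3 12225071 to 12227803, pseudogene AT3G30670). At AT3TE50670 ddm1 rdr6 had a model of 2740 nt with 13 reads, replicate B one of 397 nt with 10 reads that began 2343 bp from the ddm1 start, and ddm1 pol V, replicate A and wt had none. At least 2000 nt were reached by 5 models, at AT3TE50670, AT1TE52925, AT1TE44450, AT1TE54480 and AT4TE15420. AT1TE54480 (Chr1 16510716 to 16512743) had a single exon of 2028 nt with 12 reads in ddm1, and 2045 nt with 62 reads in ddm1 rdr6 and 81 in replicate A. In ddm1 pol V the model was 782 nt (27 reads) and in replicate B 1518 nt (13 reads), with starts 1261 and 527 bp from that of ddm1, and wt had none.

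**Figure D4:**
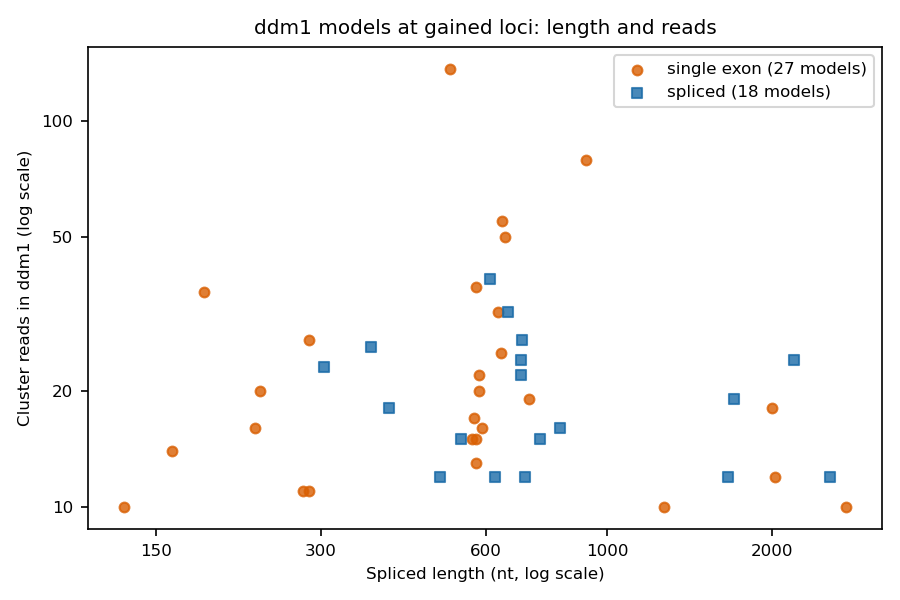
Spliced length (nt, log scale) and cluster reads (log scale) of the 45 ddm1 models at gained loci, with 27 single-exon models as circles and 18 spliced models as squares. Models between 560 and 660 nt form the densest stretch, and the highest point is the 517-nt model of AT4TE16900 with 136 reads.

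The remaining gained loci were of low to middle abundance. AT2TE15660 had 3 exons (400 nt) and 18 reads in ddm1, 22 to 160 in the other mutants and no model in wt. AT3TE58655 also had 3 exons (496 nt), with 12 reads in ddm1, 10 to 61 in the other mutants and no model in wt. AT2TE06955 (2 exons, 625 nt, 12 reads in ddm1) and AT4TE23345 (2 exons, 755 nt, 15 reads in ddm1) were missing from replicate A, and AT4TE23345 from ddm1 pol V as well. AT4TE23345 held the shortest intron, 70 nt. AT4TE19905 was a single exon of 720 nt with 19 reads in ddm1, 88 in ddm1 pol V and 20 in replicate B, and was not modelled elsewhere.

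Most gained loci lay in gene-poor regions, which in Arabidopsis surround the centromeres. Of the 41, 35 (85.4%, Clopper-Pearson 95% interval 70.8 to 94.4) were in gene-poor bins, which hold 21.4% of the nuclear genome. The share was 76.4% (71.2 to 81.1) at the 297 loci found in the other mutant libraries only, so the intervals overlap. Chromosome 4 had 13 gained loci (6.99 per 10 Mb), chromosome 2 had 8 (4.06), chromosome 3 had 9 (3.84), chromosome 1 had 8 (2.63) and chromosome 5 had 3 (1.11). The 6 loci outside gene-poor bins were AT1TE27295, AT1TE65060, AT2TE41175, AT3TE67445, AT4TE67560 and AT5TE08220. AT2TE41175 (Chr2 9652489 to 9655003, pseudogene AT2G22710) had 3 exons, 15 reads in ddm1, 24 to 112 in the other mutants and no model in wt. On their own strand 22 gained loci overlapped an annotated pseudogene, 2 an exon of a protein-coding gene, AT2TE19610 held a gene in its intron only, and 16 overlapped no gene on either strand. Models were paired with TEs by the authors, and the reference used here lists no TEs, so a share among all TEs cannot be given.

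The gained loci were found again in the other ddm1 libraries to differing degrees. A model overlapped 39 of 41 loci in ddm1 rdr6 (95.1%, 83.5 to 99.4), 37 in ddm1 pol V (90.2%, 76.9 to 97.3), 29 in replicate A (70.7%, 54.5 to 83.9) and 39 in replicate B (95.1%, 83.5 to 99.4). Of the 41 loci, 28 had a model in all 4 of these libraries, 8 in 3, 3 in 2 and 2 in 1, and every locus was found in at least 1. With a minimum of 20 reads in the other library the share in replicate A was 43.9%. The 2 seen in only 1 of them were AT1TE47605 (ddm1 pol V) and AT2TE26230 (ddm1 rdr6, 11 reads). Summed reads at the gained loci were 1106 in ddm1, 2003 in ddm1 rdr6, 2559 in ddm1 pol V, 1176 in replicate A and 6625 in replicate B. Their order by reads in ddm1 was related weakly to that in the others, with Spearman's rho of 0.49 in ddm1 rdr6 (39 loci), 0.33 in ddm1 pol V (37), 0.21 in replicate A (29) and 0.19 in replicate B (39). Loci entered only with a model in both libraries, and the depth of each library is unknown.

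Base composition is given for comparison with the 6 loci that had a wt model, without a test. The median GC content was 38.1% at gained loci (31.6 to 44.97) and 45.2% at wt loci (33.7 to 50.4). Gained loci held a median of 1.92 CG sites per 100 nt (0.549 to 5.69) and wt loci 4.05 (1.34 to 5.73). Both ranges overlap. Among the loci in both libraries, AT5TE72200 had 35 reads in ddm1 and 36 in wt, and AT3TE63065 had 11 in each. The 3 loci without a ddm1 model, AT4TE03410 (SADHU5-1), AT4TE25700 and AT5TE72580, were at 11 reads apiece in wt, just above the minimum of 10. Replicate B had a model at all 3, ddm1 rdr6 at 2, ddm1 pol V at 1 and replicate A at 1.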

How the data were processed

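Long cDNA reads were aligned with minimap2 to TAIR10, per the submitters' processing notes, and clustered into transcript models by pinfish, per the file headers' source column. Versions, cluster settings and the pairing rule: not given in the sources used here. The deposited files hold model positions, model names and TE identifiers, and no library totals, so depth is unknown. The number after the bar in a model name was read as cluster reads, following pinfish's naming. Reference sequence and annotation were RefSeq's TAIR10.1. Of 509 distinct introns in all libraries, 501 (98.4%) were GT-AG there, which was used to check the build.

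Models were joined into loci by same-strand exon overlap of 1 bp, tested on simulated data. Reads of other libraries at a locus are those of models overlapping a ddm1 model. Described in full were the 10 loci with most ddm1 reads, the 5 with most exons, the 5 with the longest model, those on an exon of a protein-coding gene, those with a TE protein match and, mostly by their sums, the groups of 3 or more; the rule also named loci with an intron over 10000 nt or a model in no other mutant, and there were 0 of each. Other loci are given more briefly, and loci named for a motif, isoform or end were chosen after their values were seen. The members and lists were chosen with earlier results of these data known. The files hold TE models only, and 0 of 16 listed silencing genes, DDM1 among them, overlapped a model, so neither genotype nor tissue could be checked through genes. Searches used BLAST+ 2.17.0 (e-value 1e-05 for proteins), with Python 3.11.15, biopython 1.88, numpy 2.4.6, scipy 1.17.1 and matplotlib 3.10.9.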

Additional observations from a re-analysis of the deposited data

How the results depend on the processing

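Of 32 alternatives, 26 left their value within the limits used here (1.5 times for the number of gained loci, the 95% interval for shares and medians). The number of gained loci was 41. It became 19 with models of 20 or more reads in both libraries, 17 with multi-exon models only, and 27 when loci with a genomic copy of 95% identity or more were left out. Each of these removes models by construction. Leaving out the loci with 12 or more A after the model end gave 38. These last 2 alternatives, on copies and on A, were chosen after seeing the data. When a model of 20 reads was required in the other library, the share of gained loci found again was 63.4% in ddm1 rdr6 (95.1% without this limit), 73.2% in ddm1 pol V (90.2%) and 43.9% in replicate A (70.7%). No paired analysis was possible because ddm1 and wt had 1 library each. Leaving out a library leaves no comparison. Near the minimum of 10 reads, a missing model does not show a missing transcript.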
